A study of Mus musculus with 11 samples.

Results

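The imprinted genes H19, Igf2, Igf2r, Dlk1, Meg3, Cdkn1c, Peg3, Plagl1, Grb10 and Mest, which control growth of the embryo, were followed in fetal lung epithelium of a Prdm16 and Prdm3 conditional knockout. They were chosen by gene symbol, and all 10 were found among the 24421 rows of the count table and passed the filter on low counts. Messenger RNA was measured by poly(A) RNA sequencing of EpCAM-positive cells, held on magnetic microbeads from dissociated mouse lungs at embryonic day E17.5. The 5 knockout libraries, labelled PRDM3/16KO, came from a cross of Prdm16 flox/flox and Prdm3 flox/flox mice carrying the ShhCre allele, which drives Cre recombinase in lung epithelium and was passed on by the fathers. The 6 other libraries are labelled Control, which the series' design text calls wild type, and the labels do not say which floxed alleles or whether Cre was present in them. All libraries share the tissue, the age and the bead selection. The labels number the libraries without saying whether each is a separate animal, so a p-value here measures only how these libraries vary, which may be technical in part.

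In imprinted genes only the copy from one parent is active, set by DNA methylation placed in the germ line. Paternally active genes such as Igf2 mostly favour fetal growth and maternally active genes such as Cdkn1c mostly restrain it. IGF2 signals through the IGF1 and insulin receptors, while the receptor IGF2R takes it up for breakdown. PLAGL1, a zinc-finger protein, is placed upstream of several others, and these genes are known in mouse to fall together as organs stop growing after birth. The counts do not tell the 2 parental copies apart, so they give total level and not imprinting itself.

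The clearest change was in Dlk1, which fell to 0.313 of its Control level. Mest, Peg3, Grb10 and Igf2 rose, by 2.12-fold, 1.85-fold, 1.42-fold and 1.33-fold. H19, Igf2r, Meg3, Cdkn1c and Plagl1 did not pass the threshold. Thus 4 of 10 genes were called higher and 1 lower, by edgeR's quasi-likelihood test at an adjusted p of 0.05, and the CPM of the groups did not overlap for 3 of the 10. CPM is the count scaled to a common library size, adjusted by TMM. Of all 13916 genes tested, 21.1% were called higher and 21.8% lower, 42.9% in all, and 28.5% had groups that did not overlap. The share called among the 10 genes, 50%, was therefore close to that of the whole profile. Their median log2 fold change, knockout over Control, was 0.31, against 0.0023 for all tested genes. Of the 5 paternally active genes (Igf2, Dlk1, Peg3, Plagl1 and Mest) 3 were called higher and 1 lower. Of the 5 maternally active genes (H19, Igf2r, Meg3, Cdkn1c and Grb10) 1 was called higher and 0 lower.

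Sequences are shown first for the microRNAs hosted by 4 of these genes, to show what the host transcripts carry. The hairpins lie within an exon of H19 and of Meg3 and within an intron of Igf2 and of Mest. The mature sequences are from RefSeq (GRCm38.p6), written 5′ to 3′ with the seed, bases 2 to 8, in capitals:
miR-675-5p (H19, chr7:142577112-142577133, minus strand): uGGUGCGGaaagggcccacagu
miR-675-3p (H19, chr7:142577078-142577099, minus strand): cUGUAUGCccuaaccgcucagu
miR-483-5p (Igf2, chr7:142654968-142654989, minus strand): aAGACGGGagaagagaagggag
miR-483-3p (Igf2, chr7:142654932-142654952, minus strand): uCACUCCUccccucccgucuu
miR-335-5p (Mest, chr6:30741314-30741336, plus strand): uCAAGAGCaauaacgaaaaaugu
miR-335-3p (Mest, chr6:30741354-30741375, plus strand): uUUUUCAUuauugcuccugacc
miR-770-5p (Meg3, chr12:109563710-109563731, plus strand): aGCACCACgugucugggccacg
miR-770-3p (Meg3, chr12:109563744-109563765, plus strand): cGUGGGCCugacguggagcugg
No seed is shared between these 8 sequences. Another annotated microRNA gene, Mir1906-1, shares 80 exon bases with Meg3 on the same strand, and its sequence is not shown. The deposited rows for the hairpins themselves hold almost nothing: Mir675 and Mir770 were listed at 0 in all 11 libraries, Mir483 had 9 counts over Control and 7 over knockout libraries, and Mir335 had 2 and 1. Poly(A) libraries do not capture mature microRNAs, so these rows say nothing of their level.

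Promoters are shown for Dlk1 and Meg3, neighbours in one imprinted cluster with log2 fold changes of -1.67 and -0.30, and for Peg3, higher in every knockout library than in any Control library. RefSeq promoter windows (GRCm38.p6) were matched for 8 of the 10 genes, 15 windows in all, each running from 250 bases before to 50 bases after a transcript start. Capitals mark matches on either strand to any of 4 motifs: GGGGCCCC, the core of the site bound by PLAGL1, ACAAGATA, from the site of MECOM (the present symbol of PRDM3), CAAGTG, the NKX2 core bound by NKX2-1, and TATAAA:
Dlk1 (chr12:109452573-109452872, plus strand): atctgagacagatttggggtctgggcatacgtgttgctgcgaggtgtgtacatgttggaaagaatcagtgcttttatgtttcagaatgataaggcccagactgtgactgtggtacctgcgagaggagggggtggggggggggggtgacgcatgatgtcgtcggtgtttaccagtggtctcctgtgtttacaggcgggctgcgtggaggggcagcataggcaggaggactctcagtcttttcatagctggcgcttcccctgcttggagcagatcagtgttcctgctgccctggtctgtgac
Meg3 (chr12:109540746-109541045, plus strand): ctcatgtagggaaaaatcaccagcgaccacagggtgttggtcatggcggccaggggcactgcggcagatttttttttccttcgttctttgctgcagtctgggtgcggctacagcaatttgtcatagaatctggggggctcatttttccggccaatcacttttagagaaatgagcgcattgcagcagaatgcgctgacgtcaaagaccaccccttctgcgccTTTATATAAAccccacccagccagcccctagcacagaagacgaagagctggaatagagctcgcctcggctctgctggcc
Peg3 (chr7:6730370-6730669, minus strand): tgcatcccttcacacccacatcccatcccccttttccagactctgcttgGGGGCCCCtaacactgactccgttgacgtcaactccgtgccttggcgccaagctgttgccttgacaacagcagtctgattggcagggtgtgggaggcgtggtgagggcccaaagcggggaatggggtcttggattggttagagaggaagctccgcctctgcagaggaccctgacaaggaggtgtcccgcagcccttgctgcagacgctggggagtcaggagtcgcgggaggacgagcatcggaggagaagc
The Peg3 window holds GGGGCCCC, which 1.08% of all 32851 mouse windows hold, and no other window of the 8 matched genes does. The Meg3 window shown has 2 overlapping matches to TATAAA, a motif present in 13.6% of windows, and the other Meg3 window, not shown, has none. CAAGTG, also in 13.6%, was found in 1 of the 4 Igf2 windows and 1 of the 2 Grb10 windows. ACAAGATA, in 0.575% of windows, was found in none of the 15. The Dlk1 window has none of the 4 motifs and 9 CpG dinucleotides, against a median of 7 over all windows. A match or its absence describes only the letters of these windows.

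**Figure D1:**
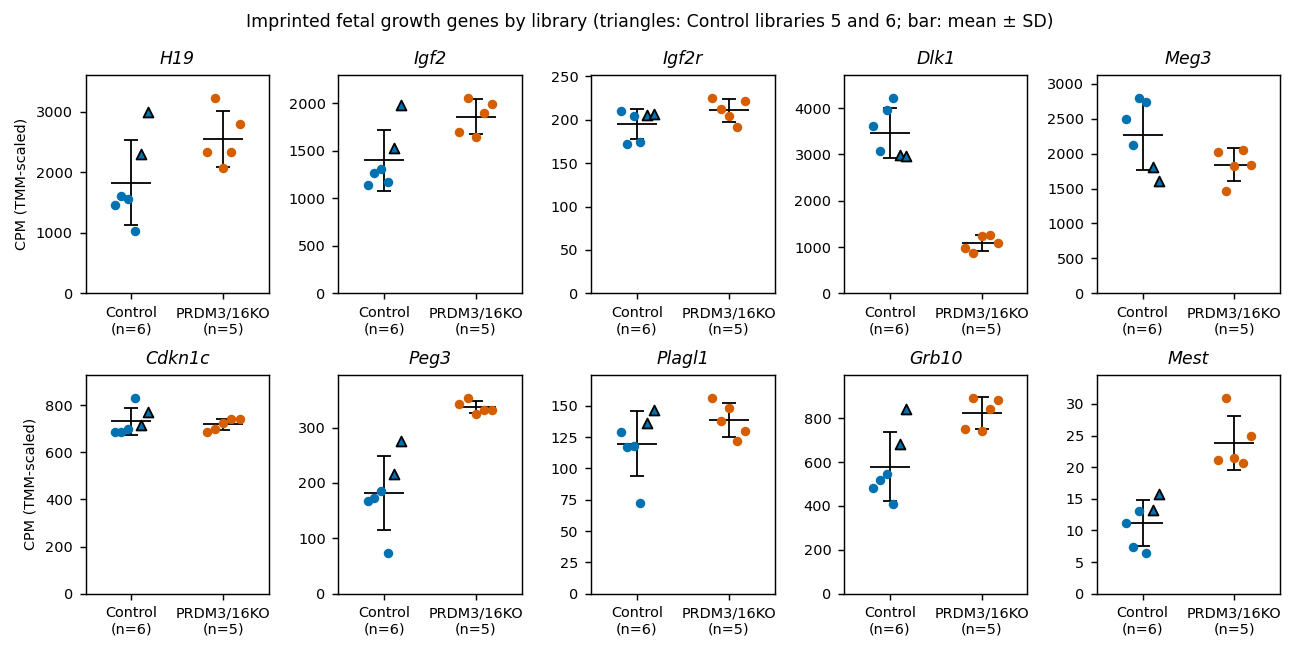
CPM of each gene (vertical axis, scaled by TMM, linear from 0) in the 6 Control and 5 PRDM3/16KO libraries, 1 point per library, with the mean and SD as a bar. The Dlk1 points separate widely, from 2970 or more in Control to 1262 or less in the knockout, and Control libraries 5 and 6 (triangles) lie at the top of the Control range for H19, Igf2, Grb10, Peg3, Plagl1 and Mest.

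The targeted genes were read as a check of the labels. Prdm16 fell from 202 ± 21.9 CPM in Control (SD, n = 6) to 166 ± 12.2 in the knockout (SD, n = 5), a log2 difference of -0.28 (edgeR, adjusted p = 0.00905). That call was lost under 2 of 26 alternative settings, which vary scaling, filter, tool, covariates and the libraries used. Mecom rose from 219 ± 9.99 to 340 ± 16.0 CPM (0.64; edgeR, adjusted p = 3.26e-07). Counts cover whole genes and the deleted exons are not named in the labels, so this is a weak check. Library totals ran from 6065906 to 7869787 counts. Epithelial genes stood far above those of other cell types: 9 epithelial markers summed to 5796 to 6554 CPM in Control and 5835 to 6286 in the knockout. In bulk libraries, fewer cells of a type and less RNA per cell cannot be told apart. Control libraries 5 and 6 stood apart in proliferation genes, whose 17 markers summed to 769 and 1069 CPM there, to 282 to 488 in the other Control libraries, and to 408 to 555 in the knockout. The 2 covariates named below are the mean log2 CPM of 19 mesenchymal markers and of 4 Y-linked genes, the second standing for the sex of the embryos. Sex was unbalanced between the groups: the Y-linked genes summed to 203 to 231 CPM in Control libraries 1, 3, 4 and 5 and to 212 CPM in knockout library 4, against 0.247 to 5.18 CPM in the 6 others. Each group held high and low values, so its libraries did not all come from the same animal. Genotype and sex are thus confounded in part, and of the genes named here as called, Igf2, Igf1 and Rian lost their calls with the Y-linked term.

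Measured per kilobase of annotated exon, so that genes can be compared, H19 had the highest mean of the 10 in both groups, although in Control libraries 1, 3 and 4 Dlk1 lay above it. The mean level in Control was 742 CPM per kb for H19, 613 for Dlk1, 359 for Cdkn1c, 244 for Igf2, 125 for Meg3, 63.8 for Grb10, 21.0 for Igf2r, 15.3 for Plagl1, 13.6 for Peg3 and 2.83 for Mest. Among neighbours in this order, ranges over the Control libraries overlapped between H19 and Dlk1, Cdkn1c and Igf2, Meg3 and Grb10, Igf2r and Plagl1, and Plagl1 and Peg3. Igf2r (18.5 to 22.6) and Peg3 (5.46 to 20.6) overlapped there too. In the knockout Dlk1 stood in the fourth place, at 192 CPM per kb, below H19 (1037), Cdkn1c (352) and Igf2 (325). There Peg3 (25.3) stood above Igf2r (22.7) and Plagl1 (17.8), with no overlap among the 3. Lengths sum every annotated exon, which for Meg3 comes to 18.1 kb, so per-length levels of genes with many alternative exons are low estimates. The 10 genes together made up 0.918% to 1.22% of counts in Control and 0.931% to 1.06% in knockout libraries.

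Dlk1 encodes a membrane protein with EGF-like repeats, related to the Notch ligands, that is widely made in the fetus and in mouse marks precursors such as preadipocytes. The gene lies on chromosome 12 from 109452823 to 109463336 (mm10, GENCODE M21). Control libraries 1 to 6 held 3607, 3076, 3956, 4218, 2989 and 2970 CPM of Dlk1. Knockout libraries 1 to 5 held 986, 872, 1234, 1262 and 1078 CPM. Every knockout library lay below every Control library, and the highest knockout value was under the lowest Control value by a wide gap. The means were 3469 ± 539 (SD, n = 6) and 1087 ± 165 CPM (SD, n = 5), which is -1.67 as a log2 fold change (SE 0.13, 95% interval -1.94 to -1.41; edgeR, adjusted p = 5.03e-08). The call held under all 26 alternatives, with log2 fold changes from -1.78 to -1.56. Dlk1 is also known from neuroendocrine tumours. Of 10 tested neuroendocrine marker genes 9 were called higher, where 21.1% of all genes were called higher. The 12 listed summed to 32.7 to 63.8 CPM in Control and 584 to 727 CPM in the knockout. Any link between these markers and the level of Dlk1 was not tested.

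Meg3, a maternally active long noncoding RNA, is the counterpart of Dlk1 in the same cluster and starts 77.7 kb beyond its end (chromosome 12, 109541001 to 109571726). Its levels were 2501, 2124, 2795, 2736, 1805 and 1608 CPM in Control libraries and 2020, 1460, 1827, 2049 and 1837 CPM in knockout libraries. The ranges overlapped because Control libraries 5 and 6 were as low as the knockout, while Control libraries 1 to 4 were all above it. The log2 fold change was -0.30 (SE 0.14, interval -0.61 to 0.01; edgeR, adjusted p = 0.111). Without Control libraries 5 and 6 it was -0.47 and was called (edgeR, adjusted p = 0.00184), and without Control library 6 alone it was -0.38 (adjusted p = 0.0198). The libraries left out are the lowest of Control, which favours a call, so these fits are no separate support for a fall of Meg3. Counting Dlk1 per Meg3 count removes the scaling of libraries. That ratio was 1.44, 1.45, 1.42, 1.54, 1.66 and 1.85 in Control and 0.488, 0.597, 0.676, 0.616 and 0.587 in the knockout, so every knockout ratio lay below every Control ratio.

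**Figure D2:**
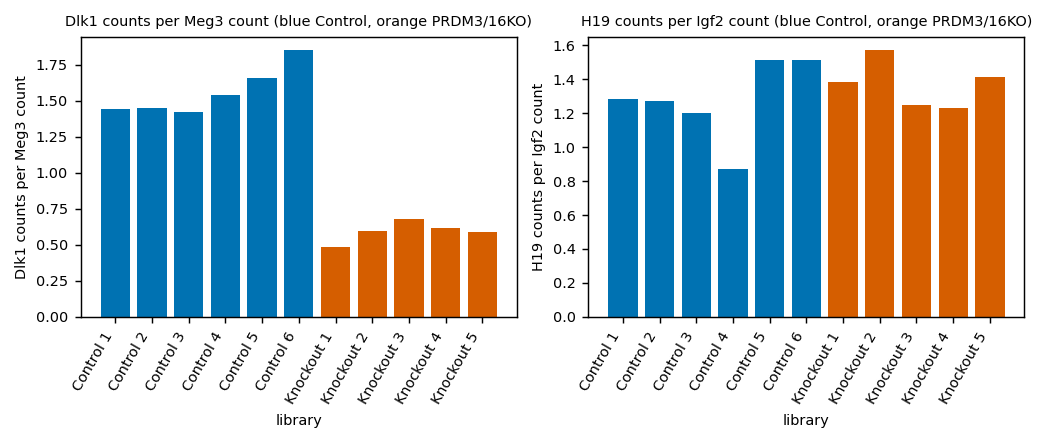
Ratio of raw counts in each library for the 2 pairs of oppositely imprinted neighbours, with Control in blue and PRDM3/16KO in orange, 1 bar per library on a linear axis from 0. Dlk1 counts per Meg3 count were 1.42 to 1.85 in Control and 0.488 to 0.676 in the knockout, whereas H19 counts per Igf2 count overlapped (0.872 to 1.51 and 1.23 to 1.57).

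Besides Dlk1, 4 of the 6 other listed genes of the Dlk1-Dio3 cluster were called lower and 0 higher, where 21.8% of all genes were called lower. Meg3 and Begain were not called. Dio3, the deiodinase that inactivates thyroid hormone, fell from 2.27 ± 0.838 to 0.412 ± 0.369 CPM (-2.44; edgeR, adjusted p = 6.94e-04), on 94 counts over Control and 16 over knockout libraries. Rtl1, a retrotransposon-derived gene active from the paternal copy, fell from 4.70 ± 1.32 to 1.98 ± 0.681 CPM (-1.22; adjusted p = 0.0015). Mirg, a noncoding RNA that hosts microRNAs, fell from 36.3 ± 15.2 to 15.5 ± 3.71 CPM (-1.21; adjusted p = 0.00317). These 3 genes did not overlap between the groups. Rian, a noncoding RNA with small nucleolar RNAs, fell from 506 ± 117 to 381 ± 54.2 CPM (-0.41; adjusted p = 0.0444), with overlap, and lost its call under 14 of 26 alternatives. Mirg lost its call with the mesenchymal covariate, whereas Dio3 and Rtl1 kept theirs under all 26. Begain was at 1.54 ± 0.524 and 1.76 ± 0.75 CPM (0.19; edgeR, adjusted p = 0.657).

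Igf2, the fetal insulin-like growth factor, lies on chromosome 7 from 142650766 to 142666816. Control libraries held 1139, 1261, 1302, 1172, 1524 and 1984 CPM of it, and knockout libraries 1699, 2053, 1644, 1900 and 1994 CPM. Each knockout value was above Control libraries 1 to 5, and only Control library 6 reached the knockout range. Mean Igf2 went from 1397 ± 318 to 1858 ± 180 CPM, or 0.41 in log2 fold change (SE 0.13, interval 0.13 to 0.69; edgeR, adjusted p = 0.0202). The call was lost with the mesenchymal covariate (0.29; adjusted p = 0.232), with the Y-linked covariate (0.34; adjusted p = 0.0593), without knockout library 2 (0.39; adjusted p = 0.053) and at a threshold of 0.01. Another annotated gene shares 62.8% of the Igf2 exon bases on the same strand, and how such reads were assigned is not given in the sources used here.

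H19, a maternally active noncoding RNA, lies 72.6 kb from Igf2 (chromosome 7, 142575529 to 142578143) and is known in mouse to share enhancers with it. The levels were 1461, 1605, 1565, 1022, 2304 and 2990 CPM in Control libraries and 2337, 3223, 2060, 2336 and 2802 CPM in knockout libraries. All 5 knockout libraries were above Control libraries 1 to 4, and Control libraries 5 and 6 lay within the knockout range. H19 had the widest Control spread of the 10 genes, a coefficient of variation of 38.6%, against a median of 11.5% over 9908 genes of at least 10 CPM in Control. The log2 fold change of 0.48 was not called (SE 0.23, interval -0.01 to 0.98; edgeR, adjusted p = 0.107). Without Control libraries 5 and 6 it was 0.85 and called (adjusted p = 7.89e-04), and without Control library 6 alone it was 0.68 (adjusted p = 0.00958). Leaving out the only Control libraries inside the knockout range favours a call, so these fits are no separate support for one. H19 counts per Igf2 count were 1.28, 1.27, 1.20, 0.872, 1.51 and 1.51 in Control and 1.38, 1.57, 1.25, 1.23 and 1.41 in the knockout. Igf2os, antisense to Igf2, was at 15.3 ± 6.35 and 18.8 ± 4.36 CPM and was not called (0.28; edgeR, adjusted p = 0.378).

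The receptors and binding proteins of this pathway moved in both directions. Igf2r, the clearance receptor (chromosome 17, 12682406 to 12769664), was at 210, 172, 204, 174, 205 and 207 CPM in Control and 225, 212, 204, 192 and 221 CPM in knockout libraries. These overlapped, with a log2 fold change of 0.11 (interval -0.04 to 0.26; edgeR, adjusted p = 0.229). It was called only with library-size scaling (0.22; adjusted p = 0.0376), which raises the median of all genes from 0.0023 to 0.11. Igf2 counts per Igf2r count were 5.41 to 9.57 in Control and 7.54 to 9.89 in the knockout.

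Of 26 tested genes of the IGF pathway other than the 10, 10 were called higher and 8 lower, 69.2% against 42.9% of all genes. The signalling receptor gene Igf1r rose from 153 ± 6.86 to 193 ± 10.1 CPM (0.33; edgeR, adjusted p = 1.78e-04), and the insulin receptor gene Insr fell from 159 ± 17.6 to 127 ± 7.02 CPM (-0.33; adjusted p = 0.00269). Insr lost its call with the mesenchymal covariate (-0.29; adjusted p = 0.0633). The binding protein gene Igfbp5 was the most abundant of the pathway by CPM and rose from 903 ± 66.8 to 3326 ± 337 CPM (1.88; adjusted p = 2.14e-10), with 821 to 1006 CPM in Control and 3000 to 3764 CPM in the knockout. Igfbp2 fell from 114 ± 41.9 to 48.0 ± 9.08 CPM (-1.25; adjusted p = 4.89e-04). Igfals, which encodes the acid-labile partner of circulating IGF complexes, rose from 12.5 ± 1.66 to 28.6 ± 4.22 CPM (1.19; adjusted p = 9.12e-07). Igfbp5, Igfbp2, Igfals and Igf1r kept their calls under all 26 alternatives. The ligand gene Igf1 rose from 9.80 ± 4.44 to 17.6 ± 3.77 CPM (0.82; adjusted p = 0.0192) and lost its call with the mesenchymal and Y-linked covariates and at a threshold of 0.01. The adaptor gene Shc1, at 117 ± 4.94 and 106 ± 6.30 CPM, was not called (-0.14; edgeR, adjusted p = 0.0603).

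Peg3, a paternally active zinc-finger gene (chromosome 7, 6703892 to 6730431), was the most even of the 10 in the knockout. Control libraries held 168, 172, 186, 72.8, 217 and 275 CPM of Peg3, and knockout libraries 342, 353, 325, 331 and 332 CPM. Every knockout library was above every Control library, and Control library 4 was far below the other Control libraries. Mean Peg3 went from 182 ± 66.5 to 337 ± 10.8 CPM, or 0.89 in log2 fold change (SE 0.23, interval 0.39 to 1.38; edgeR, adjusted p = 0.00707). The coefficient of variation was 36.6% in Control and 3.21% in the knockout. The Peg3 call was lost with the mesenchymal covariate (0.57; adjusted p = 0.162), and its log2 fold change ran from 0.57 to 1.17 over the alternatives. Its neighbour Zim1, another zinc-finger gene, rose from 3.64 ± 1.65 to 11 ± 1.72 CPM (1.57; edgeR, adjusted p = 2.45e-04), and Usp29 was at 1.52 ± 0.642 and 2.38 ± 0.447 CPM, not called.

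Mest, a paternally active gene for a protein of the alpha/beta hydrolase fold (chromosome 6, 30723547 to 30748465), was the least abundant of the 10. Its levels were 11.2, 7.33, 13.1, 6.41, 13.2 and 15.7 CPM in Control and 21.1, 30.9, 21.5, 20.7 and 25.0 CPM in knockout libraries. The groups did not overlap. Mest rose by 1.08 on the log2 scale (SE 0.20, interval 0.66 to 1.51; edgeR, adjusted p = 5.1e-04), and the call held under all 26 alternatives, from 0.91 to 1.33. Copg2, on the opposite strand, overlaps 23.1% of the Mest exon bases, and the strand setting of the counting is not given in the sources used here. Copg2 itself was at 48.0 ± 3.76 and 53.2 ± 4.91 CPM and was not called (0.15; edgeR, adjusted p = 0.142).

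Plagl1, the zinc-finger regulator (chromosome 10, 13060504 to 13131694), did not follow Peg3 and Mest past the threshold. It was at 129, 117, 118, 72.3, 136 and 147 CPM in Control and 156, 138, 148, 122 and 130 CPM in knockout libraries. Most values of the groups overlapped, with Control library 4 alone well below the rest. Plagl1 had a log2 fold change of 0.21 (interval -0.09 to 0.51; edgeR, adjusted p = 0.252). Of its relatives, Plagl2 fell from 218 ± 20.6 to 157 ± 11.4 CPM (-0.47; edgeR, adjusted p = 9.96e-05) and Plag1 rose from 3.31 ± 1.01 to 7.76 ± 1.97 CPM (1.21; adjusted p = 4.47e-04). Both kept their calls under all 26 alternatives.

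Among the growth restrainers, Grb10 rose and Cdkn1c did not. Grb10 encodes an adaptor that binds and damps the insulin and IGF1 receptors (chromosome 11, 11930508 to 12038683). Control libraries held 481, 517, 548, 407, 683 and 843 CPM of Grb10, and knockout libraries 751, 891, 740, 844 and 885 CPM. The knockout lay above Control libraries 1 to 5 and overlapped Control library 6. Grb10 thus had a log2 fold change of 0.50 (SE 0.15, interval 0.17 to 0.84; edgeR, adjusted p = 0.0171). Its call was lost with the mesenchymal covariate (0.33; adjusted p = 0.233) and at a threshold of 0.01. The neighbours Ddc, the aromatic amino acid decarboxylase gene, and Cobl, an actin nucleator gene, rose as well. Ddc went from 10.8 ± 1.65 to 22 ± 1.85 CPM (1.04; edgeR, adjusted p = 2.71e-06) and Cobl from 220 ± 19.5 to 370 ± 19.4 CPM (0.75; adjusted p = 4.94e-07), neither with overlap. The related adaptor gene Grb14 fell from 23.8 ± 3.34 to 16.0 ± 1.83 CPM (-0.57; adjusted p = 6.93e-04).

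Cdkn1c encodes p57, an inhibitor of cyclin-dependent kinases (chromosome 7, 143458339 to 143461050). It was at 688, 685, 697, 829, 717 and 770 CPM in Control and 686, 698, 723, 741 and 741 CPM in knockout libraries. The values overlapped almost completely. The log2 fold change was -0.03 (SE 0.068, interval -0.17 to 0.12; edgeR, adjusted p = 0.782), so these data bound a change of Cdkn1c within that interval. No direction can be given: the value ran from -0.05 to 0.08 over the 26 alternatives, and the highest came with library-size scaling, which moves the median of all genes to 0.11. Of the related inhibitor genes, Cdkn1b was at 242 ± 23.5 and 242 ± 16.7 CPM and Cdkn1a at 186 ± 45.6 and 169 ± 17.2 CPM, neither called. An annotated antisense gene overlaps 30.7% of the Cdkn1c exon bases.

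Of the 9 tested neighbours of Cdkn1c in the Kcnq1-Cdkn1c cluster, 5 were called lower, 1 higher and 3 not called. Of all genes, 21.8% were called lower and 21.1% higher. Whether the changes of these neighbours differ from that of Cdkn1c was not tested. The potassium channel gene Kcnq1 fell from 26.6 ± 2.95 to 6.99 ± 0.849 CPM (-1.92; edgeR, adjusted p = 3.19e-09). Phlda2, a restrainer of placental growth, fell from 15.5 ± 3.60 to 3.82 ± 0.713 CPM (-2.01; adjusted p = 3.26e-07). The transporter gene Slc22a18 (-1.38) and the transcription factor gene Ascl2 (-1.66) fell at low levels, from 2.75 ± 0.901 to 1.03 ± 0.217 CPM and from 2.41 ± 1.15 to 0.765 ± 0.354 CPM. None of these 4 genes overlapped between groups, and all 4 held under the 26 alternatives. Cd81 fell slightly (-0.22; adjusted p = 0.0068) and the noncoding RNA Kcnq1ot1, which in mouse silences this cluster on the paternal copy, rose from 25.9 ± 4.42 to 33.4 ± 4.00 CPM (0.37; adjusted p = 0.0169). The last call was lost under 4 of 26 alternatives, and that of Cd81 under 2, library-size scaling among them. Osbpl5, Nap1l4 and Tssc4 had log2 fold changes of 0.12, 0.00 and -0.08 and did not pass.

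In the Igf2r cluster the 2 other tested genes rose while Igf2r was not called. Airn, the noncoding RNA that overlaps Igf2r in antisense and silences it on the paternal copy in mouse, rose from 10.7 ± 1.62 to 21.9 ± 1.49 CPM (1.02; edgeR, adjusted p = 1.86e-06). The cation transporter gene Slc22a3 rose from 0.232 ± 0.187 to 5.54 ± 0.901 CPM (4.52; adjusted p = 3.21e-08), on 9 counts over Control and 215 over knockout libraries. Since the strand setting is not given, reads of Airn and of unspliced Igf2r could not be told apart.

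**Figure D3:**
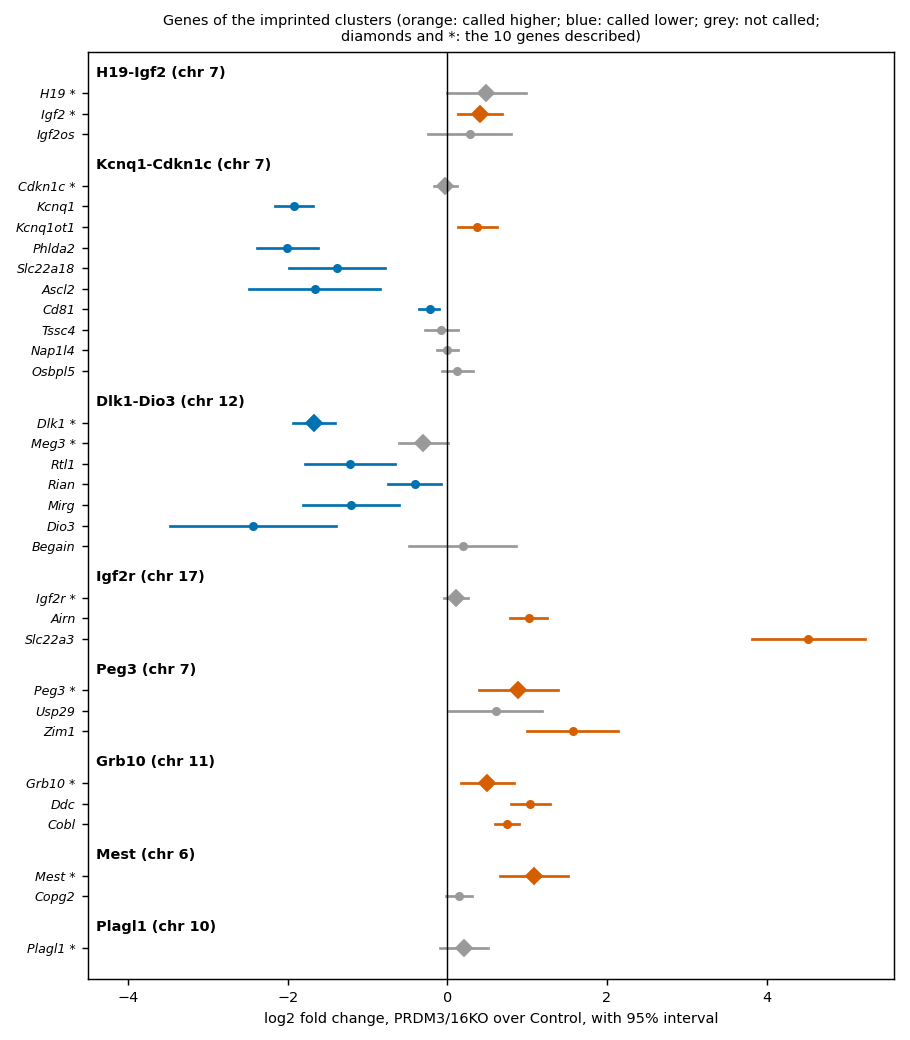
Log2 fold change, PRDM3/16KO over Control, with its 95% interval for the 32 tested genes of the imprinted clusters (horizontal axis), grouped by cluster, in orange where called higher, blue where called lower and grey otherwise. Genes of the Dlk1-Dio3 cluster lie to the left of 0 apart from Begain, Cdkn1c lies at -0.03 in a cluster with 5 genes called lower and 1 called higher, and Slc22a3 lies farthest to the right at 4.52.

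Over all clusters, 22 neighbours were tested, of which 6 were called higher and 9 lower, 68.2% against 42.9% of all genes. Of 28 tested imprinted genes at other loci, 8 were called higher and 5 lower, 46.4% in all, with a median log2 fold change of -0.06. Among them Peg12 rose from 16.1 ± 3.12 to 33.1 ± 2.63 CPM (1.04; edgeR, adjusted p = 3.72e-06), and Ndn, which lies on the same chromosome and encodes the growth suppressor necdin, rose from 32.8 ± 8.77 to 59.8 ± 2.19 CPM (0.86; adjusted p = 2.37e-04). Asb4 fell from 5.90 ± 1.65 to 1.16 ± 0.326 CPM (-2.32; adjusted p = 3.17e-06), and Blcap fell (-0.41; adjusted p = 1.97e-05). Calcr, the calcitonin receptor gene, rose (4.56; adjusted p = 7.22e-06) on 6 counts over Control and 151 over knockout libraries. The most abundant genes of this list, Gnas (-0.06) and Nnat (-0.02), were not called. The amino acid transporter gene Slc38a4 fell from 38.1 ± 5.0 to 22.4 ± 3.25 CPM (-0.76; adjusted p = 4.96e-05).

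Of 20 tested genes of DNA methylation, histone methylation and insulation listed for setting or keeping imprints, 3 were called higher and 2 lower, 25% against 42.9% of all genes, a difference in share that was not tested. Zfp57, the zinc-finger gene that guards methylated imprints, rose from 119 ± 10.0 to 177 ± 23.5 CPM (0.58; edgeR, adjusted p = 6.65e-05), with 104 to 132 CPM in Control and 153 to 206 CPM in the knockout. The demethylation enzyme gene Tet3 rose (0.19; adjusted p = 0.0122), the de novo methyltransferase gene Dnmt3b fell from 9.16 ± 1.68 to 6.35 ± 0.914 CPM (-0.53; adjusted p = 0.0104), and each lost its call under 2 of 26 alternatives. Zfp57 kept its call under all 26. The maintenance methyltransferase gene Dnmt1 (0.15) and the insulator gene Ctcf (0.05) were not called.

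**Figure D4:**
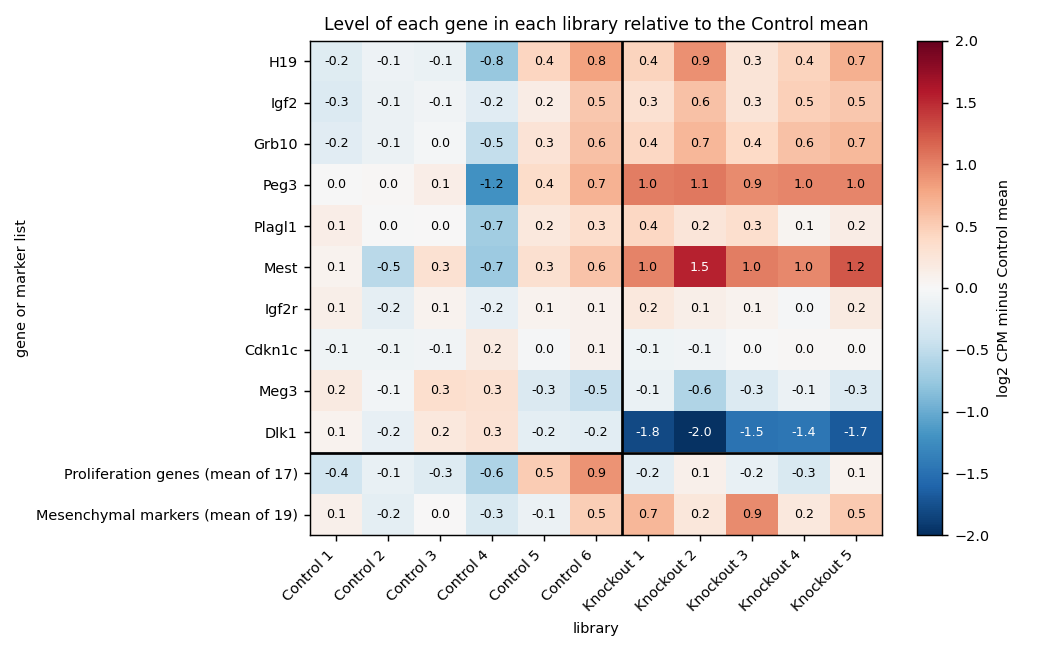
Log2 CPM of each gene minus its Control mean (colour, and printed in each cell) in the 11 libraries, above the same for the mean of 17 proliferation genes and of 19 mesenchymal markers. Control libraries 5 and 6 are above the Control mean for H19 (0.42 and 0.80), Grb10 (0.28 and 0.58) and proliferation genes (0.51 and 0.89), whereas the knockout is above it for H19 and Grb10 and lies from -0.31 to 0.10 for proliferation genes.

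Several of the 10 genes shared their spread among Control libraries. Control libraries 5 and 6 both lay above Control libraries 1 to 4 for H19, Igf2, Peg3, Plagl1, Grb10 and Mest, 6 of the 10, where 12.1% of the 9908 genes of at least 10 CPM did so. Both lay below them for Dlk1 and Meg3, as 21.2% of those genes did. Igf2r and Cdkn1c did neither. The 6 genes had positive log2 fold changes and Dlk1 and Meg3 negative ones, so Control libraries 5 and 6 departed toward the knockout in each. Their TMM factors, 1.016 and 1.031, were also nearer to those of the knockout (1.029 to 1.061) than to Control libraries 1 to 4 (0.93 to 0.944). Over all tested genes, log2 CPM of libraries correlated at 0.96 to 0.991 within groups and at 0.915 to 0.94 between groups. In the whole profile, Control libraries 5 and 6 thus stayed nearer to the other Control libraries than to any knockout library. The cause of their departure in these genes was not tested. A fit with the mean of the 17 proliferation genes as a term, added after these values were seen, gave log2 fold changes of 0.65 for H19 (edgeR, adjusted p = 1.54e-06) and -0.33 for Meg3 (adjusted p = 8.6e-04), both called, and 2 of 10 lower and 5 higher. The proliferation term was itself highest in Control libraries 5 and 6 (4.65 and 5.03 as mean log2 CPM). That fit is therefore no separate support for these calls. Without Control libraries 5 and 6 the count was also 2 lower and 5 higher, but that choice of libraries itself widens most of these differences. Over all genes, the proliferation term gave 3441 higher and 3506 lower. Leaving out the 2 libraries gave 3183 and 3345, against 2936 and 3037 in the main fit.

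Deviations of each gene from its group means were compared with those of 9747 genes of at least 10 CPM over the 11 libraries, as a description, each partner being the highest of all. H19 was nearest to Tcf19, Cldn6 and Arhgap19 (Pearson r of 0.98 for each), and Grb10 to Cldn6, Foxm1 and Kif11 (0.99, 0.98 and 0.98), the last 2 genes of cell division. Igf2 was nearest to Zcchc8, Cand2 and Nup210 (0.98, 0.98 and 0.97). Meg3 was nearest to Dgkd, Mirg and Taok3 (0.96 for each), Mirg being of its own cluster. Dlk1 was nearest to Cited2, Col23a1 and the surfactant gene Sftpb (0.94 for each). Those 3 genes were also called lower, with log2 fold changes of -0.47, -1.26 and -1.70. The partners of Grb10, itself called higher, had log2 fold changes of -0.42, -0.44 and -0.38, none of them called (edgeR, adjusted p = 0.111, 0.241 and 0.342). Those of H19 had 0.04, -0.42 and -0.31, also not called (edgeR, adjusted p = 0.918, 0.111 and 0.098). Peg3 was nearest to Zc3h13, Srfbp1 and Trp53bp1 (0.98 for each), and Plagl1 to Zfp862-ps, Fat1 and Srfbp1 (0.95 for each). Mest was nearest to Zbtb12, Adcy6 and Arhgef40 (0.95, 0.94 and 0.93), Igf2r to Kcnh2, Med17 and Ptk7 (0.93, 0.91 and 0.89), and Cdkn1c to Bzw2, Rdh13 and Usp20 (0.94, 0.93 and 0.93). Without Control libraries 5 and 6, over 9 libraries, these r values were 0.84 to 0.99. Control library 4 stayed in that set. Over the 11 libraries it had the largest deviation of Peg3 (-1.21), Mest (-0.70), Plagl1 (-0.69) and Cdkn1c (0.18). The r values of Peg3, Plagl1 and Cdkn1c thus depend much on that 1 library, and those of Mest in part.

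Markers of other cell types that bead selection can carry over were read beside these values. Each count below stands against 21.1% of all genes called higher and 21.8% called lower. Of 19 tested mesenchymal markers 9 were called higher and 0 lower, and the 21 listed, none at 0 in all libraries, summed to 757 to 1325 CPM in Control and 1126 to 1994 CPM in the knockout. With the mean of the mesenchymal markers as a covariate, 1 of the 10 genes was called higher (Mest, 0.91) and 1 lower (Dlk1, -1.63). Plagl1 changed sign (-0.08; edgeR, adjusted p = 0.76). Calls fell over the whole profile too: that fit called 1871 of 13916 genes higher and 1852 lower, against 2936 and 3037 without the covariate. That term rises with the knockout itself, so part of the genotype effect cannot be told apart from it. Of 7 mesothelial markers 7 were called higher, summing to 160 to 302 CPM in Control and 455 to 576 CPM in the knockout. Endothelial markers summed to 92.7 to 163 and 120 to 154 CPM, with 5 of 8 tested called higher and Kdr lower. Immune markers summed to 25.9 to 96.8 and 64.8 to 236 CPM, with 4 of 8 called higher. Among 8 erythroid markers, the 4 haemoglobin genes were listed at 0 in all libraries. The part of these cells in the levels of the 10 genes was not tested beyond the mesenchymal term.

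**Figure D5:**
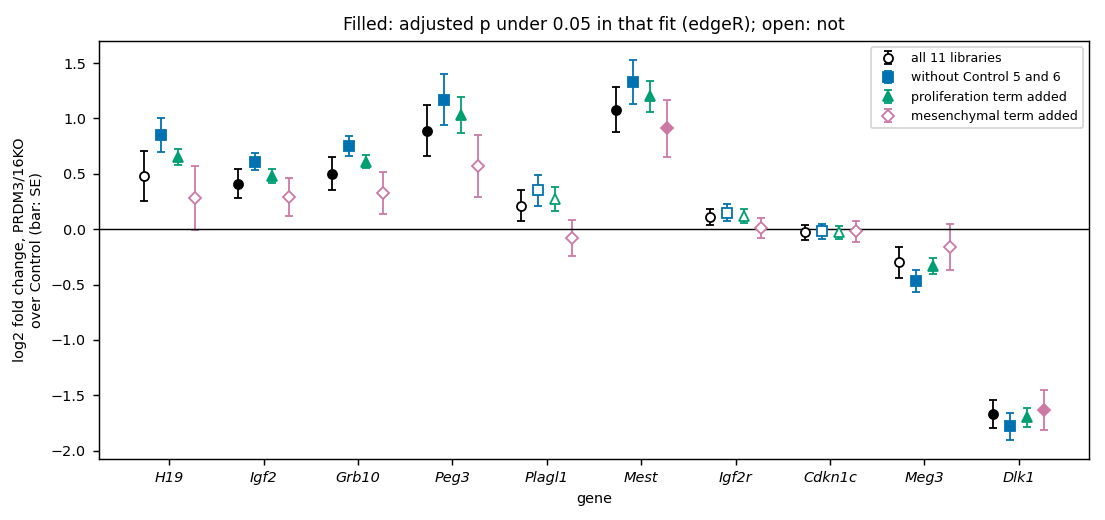
Log2 fold change with its SE (vertical axis) for each gene in 4 edgeR fits: all 11 libraries, without Control libraries 5 and 6, with a proliferation term and with a mesenchymal term, filled where the adjusted p was under 0.05. Dlk1 (-1.78 to -1.63) and Mest (0.91 to 1.33) are filled in all 4 fits, and H19 is filled in 2 of them, at 0.85 and 0.65.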

How the data were processed

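The authors deposited a single table of whole-number counts per gene symbol, with 11 columns matched to samples by the labels' descriptions. Per the submitters' processing notes, the tools were HTSeq 2.0, Bowtie2 2.4.2, Trim Galore 0.4.2, Picard 2.18.22, DESeq2, FastQC and SAMtools 1.10.0, with build mm10 and no roles named. Which annotation and strand setting were used, and how duplicate reads were treated, is not given in the sources used here. Spreadsheet-style dates replaced 27 symbols, and those rows stayed in the totals.

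Counts were filtered with filterByExpr, scaled by TMM and tested two-sided by quasi-likelihood in edgeR 4.0.16 under R 4.3.3, moderated robustly, at a threshold of 0.05 after Benjamini-Hochberg adjustment across 13916 genes. Fold changes set the knockout over Control on the log2 scale, with an SE that is the coefficient over the square root of F. The steps were tested on simulated data. Coordinates and exon lengths are from GENCODE M21 (mm10), counted from 1.

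The 10 genes and all lists were chosen with earlier results of these data known. Named genes are the 10, Prdm16 and Mecom, up to 4 called and 2 abundant uncalled genes per list, and the 3 nearest in deviation for each of the 10. A gene named by this rule is not reported here. The other neighbours in the clusters and Igf1, Insr, Ndn, Slc38a4, Dnmt1 and Ctcf were chosen after their values were seen. Alternatives were other scalings (DESeq2 size factors, library size, upper quartile), 2 other filters, DESeq2 1.42.0, limma-voom (limma 3.58.1), the replicate number as a block, moderation that is not robust, mesenchymal and Y-linked covariates, libraries left out, and an adjusted p of 0.01. A proliferation covariate and leaving out Control libraries 4, 5 and 6 were added after seeing the data.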

Additional observations from a re-analysis of the deposited data

How the results depend on the processing

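Of the 10 genes, Dlk1 and Mest kept direction and call under all 26 alternatives. Leaving out single libraries gave 1 to 2 of the 10 called lower and 3 to 5 called higher, with a median log2 fold change of 0.23 to 0.41. The count called lower was 2 in place of 1 without Control libraries 5 and 6, without Control libraries 4, 5 and 6, with the proliferation covariate and with the replicate block. Over all genes, those called lower numbered 3345, 3349, 3506 and 3118 in these fits, in place of 3037. The count called higher was 1 in place of 4 with the mesenchymal covariate and 2 at an adjusted p of 0.01. Over all genes, those called higher numbered 1871 and 2108 under these settings, in place of 2936. The cause of these shifts was not tested. Cdkn1c changed sign with library-size scaling (0.08), upper-quartile factors (0.03) and without Control libraries 4, 5 and 6 (0.05), and leaving out single libraries took it as high as 0.01 without Control library 4 and to 0.00 without knockout library 2. The first 2 of these are no larger than the shift that the scaling gives the median of all genes (0.11 and 0.058), and none was called. Plagl1 changed sign with the mesenchymal covariate (-0.08), and was called under 2 alternatives, the replicate block among them. Library-size scaling moved the split of all calls to 65.6% higher from 49.2%, and upper-quartile factors to 57.9%.

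The labels do not say whether same-numbered libraries are paired. Same-numbered deviations correlated at -0.06, 0.10, -0.05, 0.01 and 0.27 over all genes. Over the 10 genes alone they correlated at 0.66, -0.45, 0.43, 0.69 and 0.33, mostly higher, so these values do not settle whether the numbers pair libraries. With the replicate number as a block, in which Control library 6 has no partner and drops out, H19 (0.71), Meg3 (-0.37) and Plagl1 (0.30) were also called, giving 2 lower and 6 higher. Leaving out Control library 6 alone already gave calls of H19 and Meg3, so the block is no separate support for those. Over all genes the block gave 3079 higher and 3118 lower, against 2936 and 3037 in the main fit. Depth set little limit, since each of the 10 genes but Mest had at least 417 counts in every library, and Mest had 37 to 235.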
